A study of Mus musculus with 20 samples.

Results

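Complement and coagulation factors were followed in mouse liver as a set of 39 genes, 20 of the complement cascade and 19 of blood coagulation and fibrinolysis. Each gene was read from the array's probe sets (groups of short probes for 1 transcript) that the platform annotation gives to that symbol alone, and the brightest was used where there were several. Of the 39 members, 35 had such a probe set, out of 18193 genes represented in this way. A gene was tested if it exceeded 16 intensity units on at least 5 arrays, which 34 members passed among 8774 genes in all. The tested members were 17 complement and 17 coagulation genes, and 33 of the 34 exceeded 16 units in all 20 mice, the exception being F8, which exceeded it in all 5 MCAD-/- mice with vehicle and in 3 of the other 15 mice and so passed the filter through that group alone. Its differences from that group are given as a description, and counts of coagulation calls that hold it are given without it or with a statement that they hold it. C3, Cfd and Cpb2, for which no single-symbol probe set was listed, and C4b, whose probe set is shared with C4a, were not analysed here. F3 had a probe set but did not pass the filter.

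Liver RNA was measured on 1 array per mouse in 4 groups of 5 male mice each. The study addressed how the liver handles carbohydrate under high metabolic demand when medium-chain acyl-CoA dehydrogenase (MCAD), a mitochondrial enzyme of fatty acid oxidation encoded by Acadm, is missing. The groups were MCAD-/- mice given lipopolysaccharide (LPS, from the outer membrane of bacteria, which sets off inflammation), MCAD-/- mice given vehicle, wild type mice given LPS, and wild type mice given vehicle. LPS was injected at 100 µg per 20 g of body weight, and after the injection all mice, vehicle mice included, went without food for 12 h. All were on a mixed BL6/SV129 background and 50 to 60 days old, and whether the genotypes shared litters is not given in the sources used here. RNA came from whole liver, so fewer cells of a type and less RNA per cell cannot be told apart.

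The liver makes most of the circulating complement and clotting proteins, chiefly in hepatocytes. Complement is a cascade of proteases that starts from antibody, from lectins bound to microbial sugars or spontaneously, and ends in a pore assembled in the target membrane. Coagulation is a parallel cascade of proteases, some of them vitamin K-dependent, and their cofactors that ends when thrombin turns fibrinogen into fibrin. In the acute phase response to inflammation, the liver is known to raise the output of some plasma proteins, fibrinogen among them, and to lower that of others.

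The labels were checked against Acadm, which lay at 14.3 to 218 units in MCAD-/- mice with LPS against 1449.9 to 2375 units in wild type mice with LPS, and at 9.03 to 80.2 units in MCAD-/- mice with vehicle against 3106 to 4022 units in vehicle-treated wild type mice (exact permutation test, two-sided, p = 0.00794 for each, the smallest that 5 against 5 allows). All 9 measured hepatocyte markers exceeded 16 units in every mouse, and all 5 measured cholangiocyte markers lay under it in every mouse. Between 30.2% and 32.3% of probe sets exceeded 16 units on each array, and 0 arrays held identical values. Wild type replicate 3 with vehicle and wild type replicate 4 with LPS stood apart by the log2 ratio of the 3' to the 5' probe set of the actin control, at 3.18 and 3.69, and the MCAD-/- arrays lay between 1.40 and 2.34. Counts below that move by over 1.5 times without these 2 arrays are given with their other value.

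LPS lowered more of the tested complement and coagulation genes than it raised, in both genotypes. In MCAD-/- mice 3 of 17 complement genes rose and 11 fell, and 4 of 17 coagulation genes rose and 8 fell (limma, adjusted p under 0.05), or 7 of 16 without F8. Over all 8774 genes tested, 65.7% changed in that comparison, 38.1% upward and 27.6% downward. In wild type mice 3 of 17 complement genes rose and 8 fell, and 3 of 17 coagulation genes rose and 8 fell, where 64% of all genes changed, 40.0% upward and 24.0% downward. The share of members that changed, 64.7% of either family in wild type mice, and 82.4% of complement and 70.6% of coagulation genes in MCAD-/- mice, lay near these backgrounds or above them, while falls made up 64.7% of complement and 47.1% of coagulation genes in MCAD-/- mice and 47.1% of each in wild type mice. The coagulation shares count F8 among the 17 genes, and in MCAD-/- mice it is among those that fell.

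The median log2 difference between LPS and vehicle was -0.60 for complement and -0.25 for coagulation genes in MCAD-/- mice, beside 0.14 over all genes tested. In wild type mice it was -0.46 for complement and -0.38 for coagulation genes, beside 0.18 over all genes. Without F8 the coagulation medians were -0.21 in MCAD-/- and -0.32 in wild type mice, and with values under 16 units set to 16 the wild type one was -0.26. The LPS and vehicle groups did not overlap for 12 of 17 complement and 12 of 17 coagulation genes in MCAD-/- mice, where 51.4% of all genes did not overlap, and for 10 and 12 of 17 in wild type mice, where 46.1% did not. F8 is among the 12 coagulation genes in MCAD-/- mice, and its groups overlapped in wild type mice. The 2 LPS comparisons share no arrays, and across genes their log2 differences had a Pearson r of 0.92 over 17 coagulation genes and 0.80 over 17 complement genes, as a description, since genes are not independent replicates. The coagulation value holds F8 and also Klkb1, which at -5.03 in MCAD-/- and -3.95 in wild type mice lies apart from every other member. It was not computed without them, so the 2 values do not rank the families. Of the 17 complement genes 8 fell and 2 rose in both genotypes, and of the 17 coagulation genes 6 fell and 3 rose in both, where 20.5% of all genes fell and 31.7% rose in both.

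**Figure D1:**
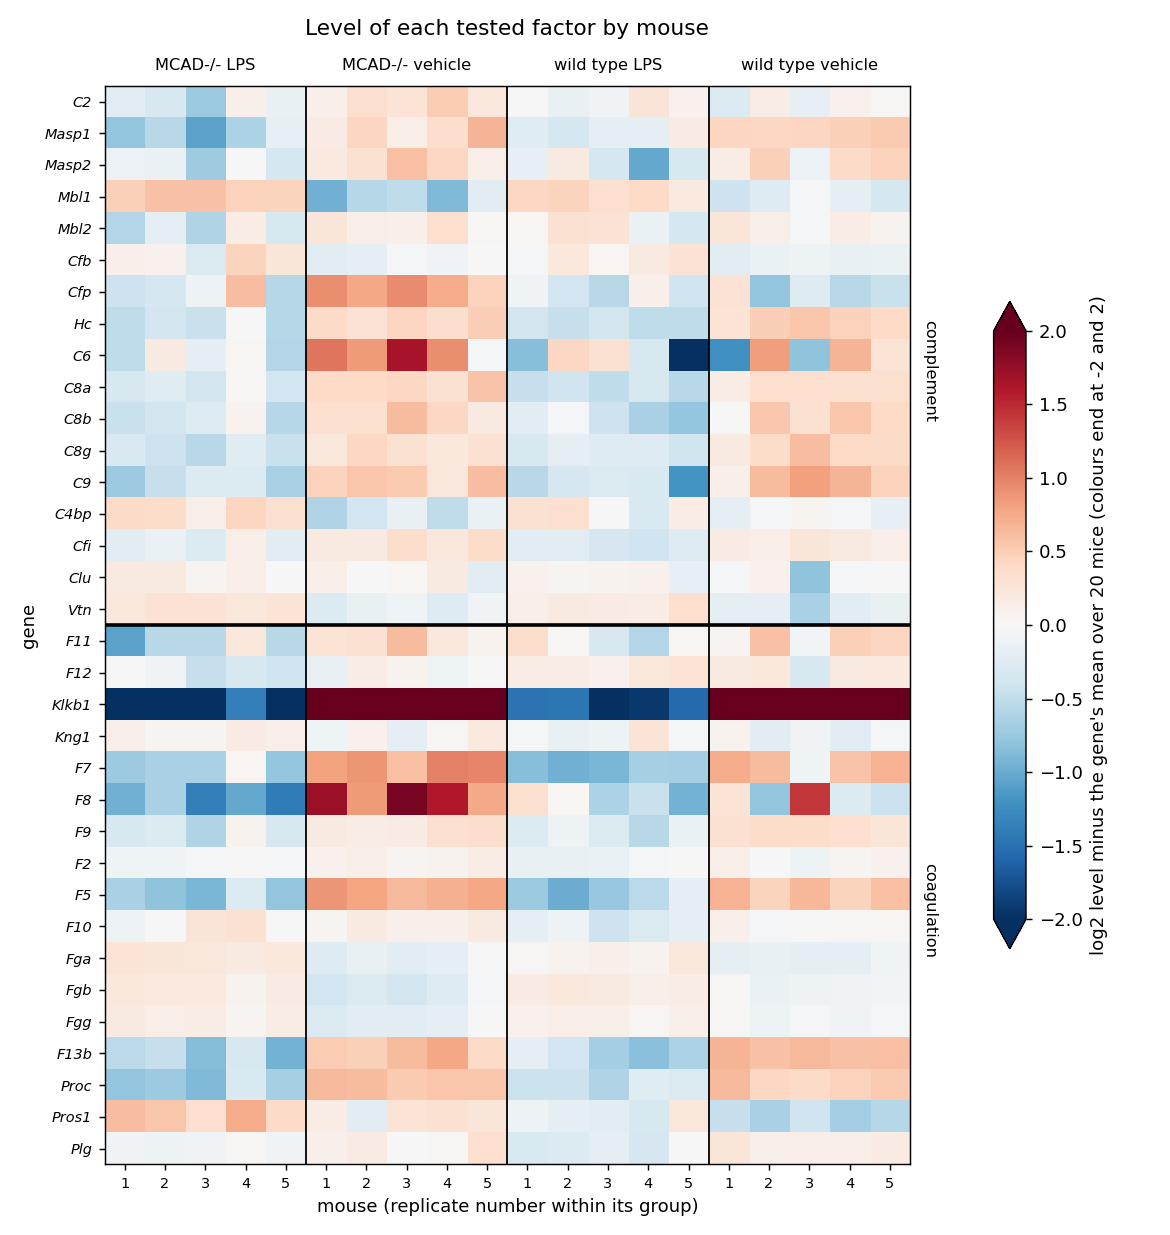
Log2 intensity of each of the 34 tested genes minus that gene's mean over the 20 mice, with 1 column per mouse and the groups from left to right as MCAD-/- with LPS, MCAD-/- with vehicle, wild type with LPS and wild type with vehicle. Colours end at ±2. Most rows are lower in the LPS columns of both genotypes, the fibrinogen rows are higher there, and Klkb1 has the strongest contrast.

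**Figure D2:**
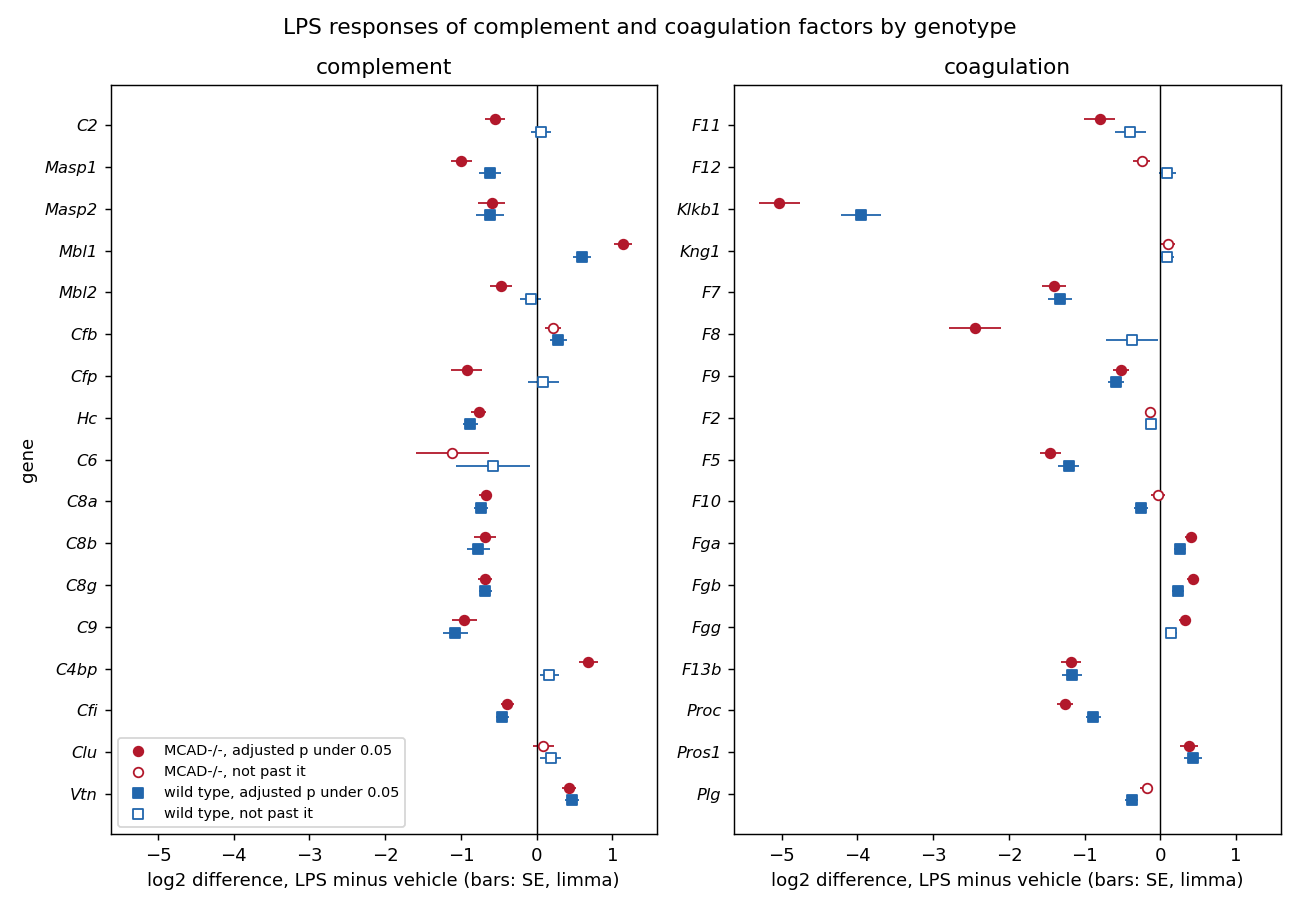
Log2 difference between LPS and vehicle with its standard error for each gene, in MCAD-/- and in wild type mice, with complement and coagulation genes in separate panels; filled symbols have an adjusted p under 0.05. Most complement genes lie between -1.11 and 0 in both genotypes, and Klkb1 at -5.03 in MCAD-/- and -3.95 in wild type lies apart from every other member.

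Hepatocyte markers also fell with LPS. Of 9 markers 8 fell and 0 rose in MCAD-/- mice, with a median log2 difference of -0.27, and 7 fell and 0 rose in wild type mice, with a median of -0.22. Their summed level was 103045 to 110065 units with LPS against 127334 to 137075 units with vehicle in MCAD-/- mice, and 101160 to 106313 units with LPS against 122396 to 128567 units with vehicle in wild type mice. Neutrophil and other infiltrating myeloid markers moved the other way: 3 of 9 were tested, and all 3 rose in both genotypes. In either genotype 3 of the 9 exceeded the filter level in all LPS mice, and 0 did so in all vehicle mice. The 3 tested markers thus passed the filter through the LPS groups, so their count of rises is a description. The summed level of the 9 was 2718 to 3248 units with LPS against 49.7 to 220.0 units with vehicle in MCAD-/- mice. In wild type mice it was 1866 to 3929 units with LPS against 51.7 to 124 units with vehicle. The part of these cell type shifts in the members' changes was not tested.

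Among the genes that start the lectin pathway, the recognition protein Mbl1 rose while its proteases fell. Mbl1, mannose-binding lectin A, which binds microbial sugars, had 2678, 2896, 2898, 2675 and 2647 units in MCAD-/- mice with LPS, against 988, 1309, 1367, 1054 and 1649 units in MCAD-/- mice with vehicle. Wild type mice had 2575, 2637, 2451, 2542 and 2209 units with LPS, against 1453, 1625, 1899, 1710.3 and 1522 units with vehicle. All LPS mice lay above all vehicle mice in either genotype. Mbl1 was 2.20-fold higher with LPS in MCAD-/- mice (log2 1.14 ± 0.12, SE, n = 5 each, adjusted p = 8.42e-08) and 1.52-fold higher in wild type mice (log2 0.60 ± 0.12, adjusted p = 0.000203). The difference between those responses, log2 0.54 ± 0.17, did not pass the threshold (adjusted p = 0.0742), and passed with a trended prior (adjusted p = 0.0461), with array weights (0.0145) and without MCAD-/- replicate 5 with vehicle (0.0182). Masp1, a serine protease carried by the lectins, fell 1.99-fold in MCAD-/- (adjusted p = 4.33e-06) and 1.53-fold in wild type mice (adjusted p = 0.000792). With the mean of its probe sets the log2 differences were -0.12 and 0.04, and neither passed. Of its dimmer probe sets, 1 at 37.5 units differed by -0.60 in MCAD-/- mice (adjusted p = 0.0048, limma over 15748 probe sets) and did not pass in wild type mice. Another, at 14.7 units, differed by -0.31 in wild type mice (adjusted p = 0.0183) and did not pass in MCAD-/- mice. The probe set at 69.1 units passed in neither. Masp2, the lectin protease that cleaves C4 and C2, fell by 0.60 on the log2 scale in MCAD-/- (adjusted p = 0.00773) and by 0.61 in wild type mice (adjusted p = 0.00632).

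The lectin Mbl2 and the protease C2, which supplies the enzyme of the classical and lectin C3 convertase, passed the threshold in MCAD-/- mice and not in wild type mice. Mbl2 had 512 to 866 units with LPS and 790.1 to 979 units with vehicle in MCAD-/- mice, a log2 difference of -0.47 (adjusted p = 0.00692), and differed by -0.08 in wild type mice (adjusted p = 0.639). C2 had 329.8 to 587 units with LPS and 589 to 777 units with vehicle in MCAD-/- mice, a log2 difference of -0.55 (adjusted p = 0.00125), and differed by 0.06 in wild type mice (adjusted p = 0.704). The responses of the genotypes were not shown to differ, at an interaction of -0.39 for Mbl2 (adjusted p = 0.291) and -0.61 for C2 (adjusted p = 0.0701). For C2 the interaction passed with the replicate block (adjusted p = 0.0355), with the mean of its probe sets (log2 -0.67, adjusted p = 0.0231) and without MCAD-/- replicate 4 with LPS (log2 -0.70, adjusted p = 0.028).

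Of the alternative pathway, 2 members were tested. Cfb, factor B, the protease of the alternative C3 convertase, differed by 0.21 ± 0.11 on the log2 scale in MCAD-/- mice (adjusted p = 0.0936) and rose by 0.29 ± 0.11 in wild type mice (adjusted p = 0.0278). The wild type call ended when replicate 1 with vehicle (adjusted p = 0.0581) or replicate 2 or 5 with LPS (0.0573 and 0.0704) was left out. The MCAD-/- difference passed in 3 of 31 alternatives. These were a further quantile normalization (adjusted p = 0.0288), array weights (0.0161) and leaving out MCAD-/- replicate 3 with LPS (0.00802). Cfb neighbours C2 on chromosome 17, with no protein-coding gene between them in the annotation. Cfp, properdin, which stabilises that convertase and is known to come from leukocytes, had 29.2, 30.7, 36.2, 59.7 and 26.1 units in MCAD-/- mice with LPS, against 73.7, 66.5, 74.6, 64.5 and 53.3 units in MCAD-/- mice with vehicle. The wild type values were 36.8, 29.7, 26.5, 41.7 and 29.4 units with LPS, against 47.5, 22.4, 32.5, 26.5 and 28.4 units with vehicle. The MCAD-/- vehicle mice were the highest of the 4 groups, and of the MCAD-/- LPS mice replicate 4 lay within their range. Cfp was 1.90-fold lower with LPS in MCAD-/- mice (log2 -0.93 ± 0.21, adjusted p = 0.000685), and in wild type mice the difference was 0.09 ± 0.21 (adjusted p = 0.722). The interaction of -1.02 ± 0.30 did not pass (adjusted p = 0.0565), and passed in 7 of 29 alternatives. These were the replicate block (adjusted p = 0.0442), array weights (0.00633), values under 16 units set to 16 (0.0481), and leaving out MCAD-/- replicate 4 with LPS (0.00841), MCAD-/- replicate 5 with vehicle (0.0425), wild type replicate 3 with LPS (0.0453) or wild type replicate 1 with vehicle (0.0192).

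The terminal components, which assemble into the membrane pore, mostly fell. Of 6 genes, 5 fell in both genotypes, and C6 did not pass in either, though its call in MCAD-/- mice depends on the setting. Hc, the gene of complement C5, had 2459, 2726, 2561, 3475 and 2359 units in MCAD-/- mice with LPS, against 4552, 4276, 4694, 4462 and 4928 units in MCAD-/- mice with vehicle. Wild type mice had 2726, 2539, 2728, 2459.6 and 2464 units with LPS, against 4213, 4938, 5122, 4839.9 and 4594 units with vehicle. The LPS and vehicle ranges were far apart in both genotypes, and Hc was 1.70-fold lower with LPS in MCAD-/- (log2 -0.77 ± 0.10, adjusted p = 1.37e-06) and 1.83-fold lower in wild type mice (log2 -0.87 ± 0.10, adjusted p = 2.71e-07). C8a, C8b and C8g, the 3 chains of C8, fell by 0.67, 0.68 and 0.69 on the log2 scale in MCAD-/- mice and by 0.74, 0.77 and 0.68 in wild type mice (adjusted p at most 0.000563). C8a and C8b are neighbours on chromosome 4, while C8g lies on chromosome 2. C9, the subunit that polymerises into the pore, was 1.94-fold lower in MCAD-/- (adjusted p = 4.7e-05) and 2.11-fold lower in wild type mice (adjusted p = 1.32e-05). C6, which joins C5b at the start of assembly, was the most variable member of the group, at 357, 578, 443, 521 and 340.1 units with LPS against 1066, 918, 1604, 975 and 499 units with vehicle in MCAD-/- mice, and 281, 676, 631, 406 and 79.6 units with LPS against 218, 905, 290.2, 816 and 618 units with vehicle in wild type mice. Its groups overlapped in both genotypes, at a log2 difference of -1.11 ± 0.49 in MCAD-/- (adjusted p = 0.0508) and -0.58 ± 0.49 in wild type mice (adjusted p = 0.307). The MCAD-/- difference passed in 10 of 31 alternatives, among them the replicate block (adjusted p = 0.0283), array weights (0.025), the 2 groups fitted alone (0.00333) and leaving out MCAD-/- replicate 5 with vehicle (log2 -1.34, adjusted p = 0.0266) or wild type replicate 5 with LPS (0.0135). Without that wild type mouse the wild type difference was -0.07 (adjusted p = 0.892).

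Complement regulators did not share a direction. C4bp, C4b-binding protein, which helps factor I to inactivate C4b, had 5707, 5652, 4732, 5898 and 5478 units in MCAD-/- mice with LPS, against 2867, 3366, 3948, 3073 and 3968 units in MCAD-/- mice with vehicle. In wild type livers the values were 5395, 5502, 4409, 3535 and 4838 units with LPS, against 3867, 4276, 4530.5, 4288 and 3909.8 units with vehicle. The groups were separate in MCAD-/- mice and overlapped in wild type mice, where LPS replicate 4, an array of high actin ratio, lay below all vehicle mice. C4bp was 1.60-fold higher in MCAD-/- mice (log2 0.68 ± 0.12, adjusted p = 6.95e-05), the wild type difference was 0.17 ± 0.12 (adjusted p = 0.243), and the interaction of 0.51 ± 0.17 did not pass (adjusted p = 0.0955), except with array weights (adjusted p = 0.0236). The wild type rise passed in 3 of 31 alternatives. These were leaving out LPS replicate 4 (log2 0.27, adjusted p = 0.0431), leaving out the 2 arrays of high actin ratio (log2 0.30, adjusted p = 0.0308) and array weights (log2 0.27, adjusted p = 0.0202). Vtn, vitronectin, which keeps the forming pore out of host membranes, was 1.35-fold higher in MCAD-/- (adjusted p = 0.000507) and 1.38-fold higher in wild type mice (adjusted p = 0.000232). Cfi, factor I, the protease that cuts C3b and C4b, was 1.31-fold lower in MCAD-/- (adjusted p = 0.000497) and 1.37-fold lower in wild type mice (adjusted p = 0.000111). Clu, clusterin, another inhibitor of pore assembly, differed by 0.09 in MCAD-/- mice (95% confidence interval -0.19 to 0.37) and by 0.18 in wild type mice (95% confidence interval -0.10 to 0.46), and neither passed.

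**Figure D3:**
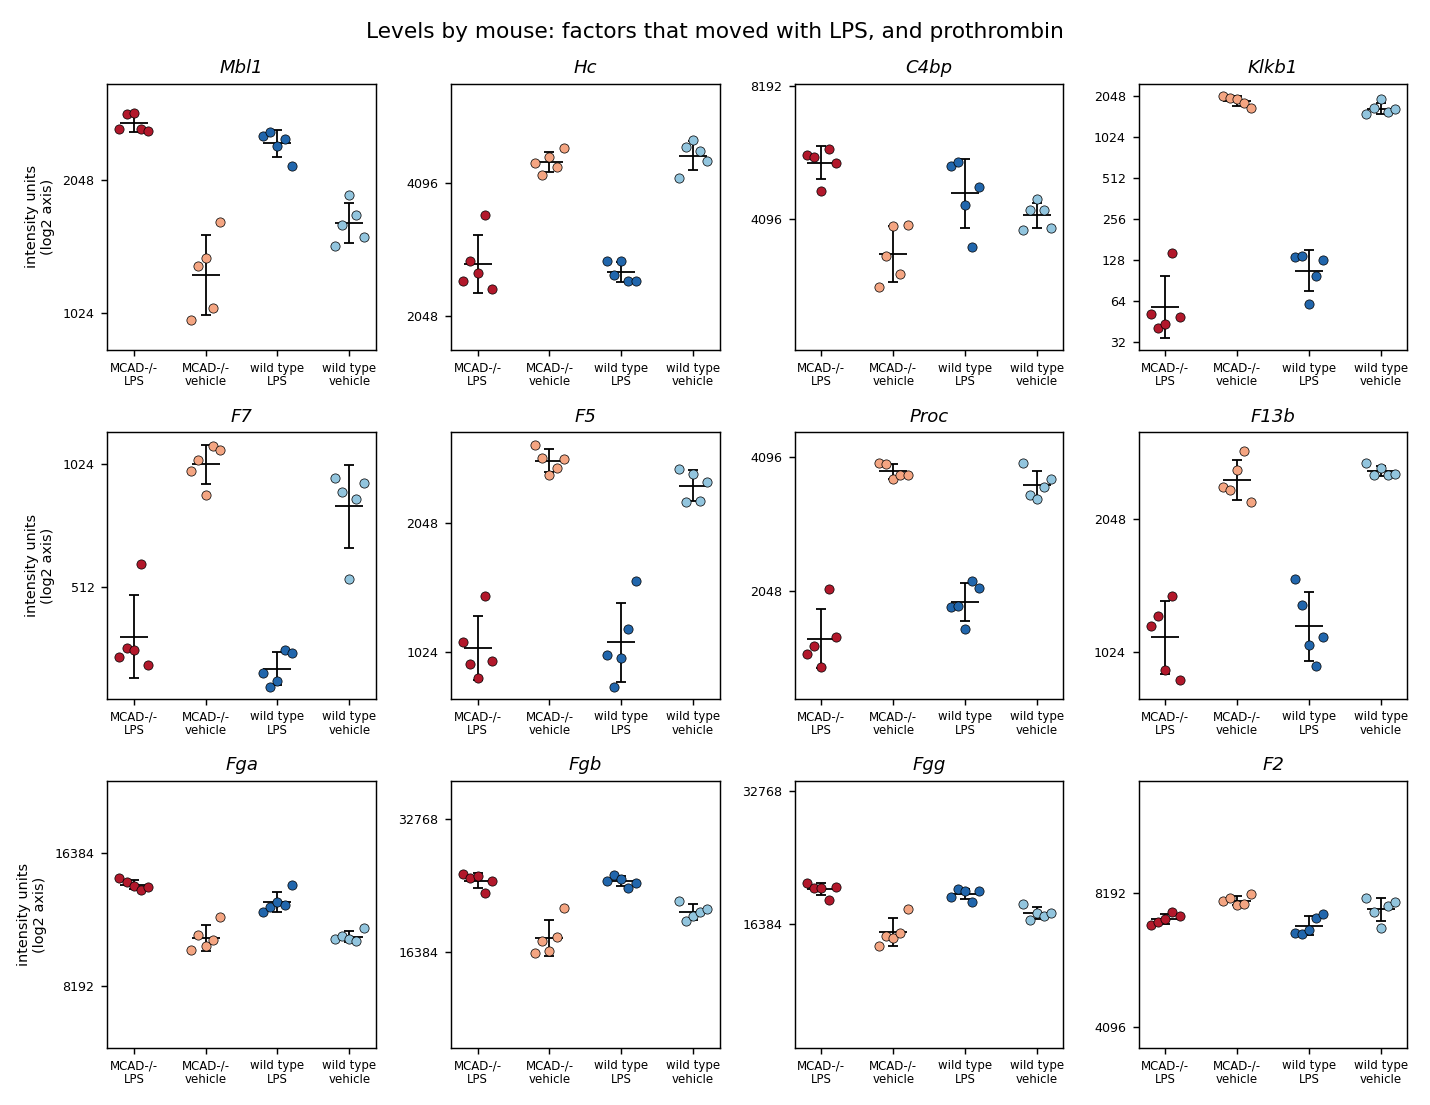
Intensity of 12 members in each mouse on a log2 axis, with points for mice, a line for the mean of the log2 values and a bar for ±1 SD; in each panel the groups run MCAD-/- with LPS, MCAD-/- with vehicle, wild type with LPS, wild type with vehicle. Klkb1 lies between 40.7 and 146 units with LPS and between 1512 and 2063 units with vehicle, F2 covers a narrow range, and Fga, Fgb and Fgg are higher with LPS.

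In the contact system, Klkb1 had the largest fall of all members, and its neighbour F11 a much smaller one. Klkb1, plasma prekallikrein, which factor XII activates and which releases bradykinin from kininogen, had 51.8, 40.7, 43.5, 146 and 49.3 units in MCAD-/- mice with LPS, against 2063, 1979, 1965, 1820.2 and 1681 units in MCAD-/- mice with vehicle. Wild type livers had 135, 137, 60.8, 98.7 and 128 units with LPS, against 1512, 1670.2, 1953, 1564 and 1643 units with vehicle. No LPS mouse came near any vehicle mouse, and MCAD-/- LPS replicate 4 was the highest of the LPS mice. Klkb1 was 32.7-fold lower with LPS in MCAD-/- mice (log2 -5.03 ± 0.27, adjusted p = 6.01e-12) and 15.5-fold lower in wild type mice (log2 -3.95 ± 0.27, adjusted p = 2.28e-10). The interaction, log2 -1.08 ± 0.38, did not pass (adjusted p = 0.111), and passed with array weights (adjusted p = 0.0171) and without MCAD-/- replicate 4 (0.00276) or wild type replicate 3 (0.0419) with LPS. F11, factor XI, a related protease that activates factor IX, lies beside Klkb1 on chromosome 8 with no protein-coding gene between them in the annotation. It was 1.74-fold lower in MCAD-/- mice (log2 -0.80 ± 0.20, adjusted p = 0.00187), and in wild type mice the difference was -0.40 ± 0.20 (adjusted p = 0.0932), with an interaction of -0.40 ± 0.29 (adjusted p = 0.467). F12, factor XII, which starts contact activation, differed by -0.25 in MCAD-/- (adjusted p = 0.0636) and 0.09 in wild type mice (adjusted p = 0.496). Kng1, kininogen, differed by 0.10 and 0.09 by its brightest probe set (adjusted p = 0.376 and 0.433). Its dimmer probe set, at 2945 units, fell by 0.42 in both genotypes (adjusted p = 0.0052 in MCAD-/- and 0.0059 in wild type mice, limma over 15748 probe sets).

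The promoters of these neighbours are shown because the genes differ in how far they fell. Both are from RefSeq (build GRCm38.p6), 250 bases before to 50 after the annotated start, at chr8:45294786-45295085, minus strand for Klkb1 and chr8:45261982-45262281, minus strand for F11, and capitals mark the only match to any of 5 searched motifs, a C/EBP-type site spelled TTNNGCAA (TTGCNNAA on the other strand), at -177 to -170 in Klkb1 and -17 to -10 in F11.
Klkb1: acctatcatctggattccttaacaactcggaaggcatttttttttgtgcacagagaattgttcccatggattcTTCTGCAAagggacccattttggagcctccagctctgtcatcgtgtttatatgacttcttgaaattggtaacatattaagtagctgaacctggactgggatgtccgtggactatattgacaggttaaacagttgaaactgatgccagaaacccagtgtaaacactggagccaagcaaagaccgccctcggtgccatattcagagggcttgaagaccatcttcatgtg
F11: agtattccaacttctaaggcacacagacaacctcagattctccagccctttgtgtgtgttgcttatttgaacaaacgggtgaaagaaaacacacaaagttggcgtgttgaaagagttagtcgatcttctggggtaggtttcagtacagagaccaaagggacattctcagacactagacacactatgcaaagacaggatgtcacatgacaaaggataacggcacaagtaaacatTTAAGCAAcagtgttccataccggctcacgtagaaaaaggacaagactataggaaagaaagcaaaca
Of all 32851 promoter windows, 10.8% hold that motif. A match is a description of the letters and not a bound site.

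The factors of the tissue factor, intrinsic and common steps mostly fell, while prothrombin did not pass the test. F7, factor VII, the protease that tissue factor activates, had 345, 363, 360.2, 585 and 330.5 units in MCAD-/- mice with LPS, against 986, 1050.4, 861, 1137 and 1113 units in MCAD-/- mice with vehicle. Wild type animals had 315, 292, 301, 359 and 353 units with LPS, against 948, 875, 535, 843 and 923 units with vehicle. LPS and vehicle mice did not overlap, and MCAD-/- LPS replicate 4 and wild type vehicle replicate 3 stood away from the rest of their groups. F7 was 2.65-fold lower in MCAD-/- (log2 -1.40 ± 0.16, adjusted p = 3.01e-07) and 2.50-fold lower in wild type mice (log2 -1.32 ± 0.16, adjusted p = 6.99e-07). F10, factor X, is the neighbour of F7 on chromosome 8, and differed by -0.03 on the log2 scale in MCAD-/- mice (adjusted p = 0.768) and by -0.26 in wild type mice (adjusted p = 0.0171). The wild type call for F10 ended without LPS replicate 3 (adjusted p = 0.0549), with each array centred on its median (0.0512), with a further quantile normalization (0.101) and with the mean of its probe sets (log2 -0.08). With that mean F10 was higher with LPS in MCAD-/- mice (log2 0.28, adjusted p = 0.021), the sign turned. F9, factor IX, fell by 0.52 in MCAD-/- (adjusted p = 0.000327) and by 0.59 in wild type mice (adjusted p = 0.000108). F3, tissue factor, the receptor that starts coagulation, had 5.11, 6.59, 5.19, 5.17 and 8.11 units in MCAD-/- mice with LPS and 8.18, 11.1, 9.99, 11.6 and 7.01 with vehicle, and 14.8, 11.1, 12.7, 8.12 and 10.7 units in wild type mice with LPS and 12.9, 14.2, 11.5, 11.8 and 18.8 with vehicle, so it exceeded 16 units in 1 mouse and was not tested.

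F5, factor V, the cofactor of factor X in making thrombin, had 1081, 961, 890.2, 1383 and 976 units in MCAD-/- mice with LPS, against 3119.9, 2906, 2649, 2754 and 2895 units in MCAD-/- mice with vehicle. Its wild type values were 1009, 850.4, 992, 1157 and 1497 units with LPS, against 2735, 2287, 2669, 2302 and 2549 units with vehicle. All LPS mice were lower, and F5 was 2.74-fold lower in MCAD-/- (log2 -1.45 ± 0.14, adjusted p = 1.72e-08) and 2.31-fold lower in wild type mice (log2 -1.21 ± 0.14, adjusted p = 2.24e-07). F2, prothrombin, the precursor of thrombin, had 6963, 7059, 7172, 7419 and 7276 units in MCAD-/- mice with LPS, against 7863, 7984, 7693, 7761 and 8167 units in MCAD-/- mice with vehicle. The wild type counterparts were 6668, 6638, 6754, 7204 and 7372 units with LPS, against 8007, 7419, 6855, 7655 and 7834 units with vehicle. In MCAD-/- mice every LPS value was below every vehicle value, while the wild type ranges overlapped. The log2 difference was -0.14 ± 0.07 in MCAD-/- mice (adjusted p = 0.1, 95% confidence interval -0.29 to 0.01) and -0.12 ± 0.07 in wild type mice (adjusted p = 0.139, 95% confidence interval -0.27 to 0.03), so neither passed and the intervals leave room for small falls. Each passed with a trended prior (adjusted p = 0.025 and 0.0414), with array weights (0.0288 and 0.0167) and in 1 further alternative.

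The 3 fibrinogen chains rose by small amounts in MCAD-/- mice, and Fga and Fgb in wild type mice, while the B subunit of factor XIII fell in both. Fibrinogen is built from the alpha, beta and gamma chains encoded by Fga, Fgb and Fgg, which lie together on chromosome 3. Their promoters are shown because these genes were higher with LPS while more coagulation members fell than rose. Each is from RefSeq (build GRCm38.p6), 250 bases before to 50 after the start, at chr3:83025903-83026202, plus strand for Fga, chr3:83049814-83050113, minus strand for Fgb and chr3:83007474-83007773, plus strand for Fgg. Capitals mark, from left to right, a STAT3-type site (TTCNNNGAA) and a C/EBP-type site in Fga; a STAT3-type site, the IL-6 response element CTGGGAA and, both on the other strand, a C/EBP-type and an HNF1-type site in Fgb; and the IL-6 response element in Fgg.
Fga: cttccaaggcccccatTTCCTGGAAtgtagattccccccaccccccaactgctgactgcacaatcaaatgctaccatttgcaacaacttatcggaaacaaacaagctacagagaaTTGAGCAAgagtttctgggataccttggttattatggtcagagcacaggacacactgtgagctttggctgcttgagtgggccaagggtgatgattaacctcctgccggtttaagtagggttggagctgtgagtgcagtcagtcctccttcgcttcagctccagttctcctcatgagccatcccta
Fgb: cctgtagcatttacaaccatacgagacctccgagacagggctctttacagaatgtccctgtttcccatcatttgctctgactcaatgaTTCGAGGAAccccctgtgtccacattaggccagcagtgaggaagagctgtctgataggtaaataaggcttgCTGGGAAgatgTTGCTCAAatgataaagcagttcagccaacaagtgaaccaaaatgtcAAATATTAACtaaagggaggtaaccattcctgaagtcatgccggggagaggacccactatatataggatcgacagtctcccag
Fgg: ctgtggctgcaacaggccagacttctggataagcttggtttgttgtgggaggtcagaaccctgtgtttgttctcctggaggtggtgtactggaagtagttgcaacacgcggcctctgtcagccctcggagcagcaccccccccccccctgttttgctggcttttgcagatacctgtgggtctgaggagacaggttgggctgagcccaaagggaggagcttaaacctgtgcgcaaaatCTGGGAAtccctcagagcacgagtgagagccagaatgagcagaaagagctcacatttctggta
The STAT3-type motif, which reads the same on both strands, lies at -234 to -226 in Fga and -162 to -154 in Fgb. The IL-6 response element lies at -91 to -85 in Fgb and -13 to -7 in Fgg.

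Fga had 14404, 14094, 13818, 13507 and 13780.5 units in MCAD-/- mice with LPS, against 9878, 10695, 10099, 10415 and 11779 units in MCAD-/- mice with vehicle. Wild type mice had 12048, 12413, 12725, 12505 and 13863 units of Fga with LPS, against 10485, 10647, 10469.9, 10388 and 11131 units with vehicle. No LPS value fell within the vehicle range, and Fga was 1.32-fold higher in MCAD-/- (log2 0.40 ± 0.07, adjusted p = 9.71e-05) and 1.20-fold higher in wild type mice (log2 0.26 ± 0.07, adjusted p = 0.00497). Fgb had 24619, 24170.3, 24315, 22266 and 23678 units in MCAD-/- mice with LPS, against 16326, 17374, 16493, 17758 and 20657 units in MCAD-/- mice with vehicle. For wild type mice Fgb gave 23753, 24505, 23969, 22929.6 and 23506 units with LPS, against 21423, 19227, 19781, 20228 and 20498 units with vehicle. Its groups were separate too, and Fgb was 1.35-fold higher in MCAD-/- (log2 0.43 ± 0.08, adjusted p = 7.89e-05) and 1.17-fold higher in wild type mice (log2 0.23 ± 0.08, adjusted p = 0.0145). Fgg had 20304, 19732, 19793, 18605 and 19849 units in MCAD-/- mice with LPS, against 14654, 15428, 15229, 15677 and 17751 units in MCAD-/- mice with vehicle. The wild type readings of Fgg were 18898, 19638, 19449.9, 18393 and 19437 units with LPS, against 18235, 16770.05, 17393, 17094 and 17361 units with vehicle. Every LPS value of Fgg exceeded every vehicle value within its genotype, and Fgg was 1.25-fold higher in MCAD-/- mice (log2 0.32 ± 0.07, adjusted p = 0.000701), with a wild type difference of 0.14 ± 0.07 (adjusted p = 0.0966) and an interaction of 0.18 ± 0.10 (adjusted p = 0.345). The wild type difference passed in 3 of 31 alternatives, with each array centred on its median (adjusted p = 0.0407), a trended prior (0.0149) and array weights (0.0235).

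These chains are at the top of the array's range. The Fgb probe set was the brightest of 45037 non-control probe sets on all 10 LPS arrays and ranked between 1 and 14 over the 20 arrays, Fgg ranked between 5 and 21 and Fga between 24 and 59. Whether the scale compresses differences at such levels was not tested. F13b, the carrier subunit of factor XIII, which cross-links fibrin, had 1175, 1239, 936, 1375 and 886 units in MCAD-/- mice with LPS, against 2426, 2379, 2650.4, 2919 and 2243 units in MCAD-/- mice with vehicle. It had 1503, 1313, 1063, 956 and 1108 units in wild type mice with LPS, against 2739.5, 2581, 2679, 2575 and 2591 units in vehicle-treated wild type mice. The groups were separate, with a log2 difference of -1.18 ± 0.13 in MCAD-/- (a fall of 2.27-fold, adjusted p = 1.9e-07) and -1.17 ± 0.13 in wild type mice (2.24-fold, adjusted p = 2.49e-07).

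Of the anticoagulant proteins, Proc fell and its cofactor Pros1 rose. Proc, protein C, which once activated cuts factors V and VIII, had 1476, 1532, 1377, 2062 and 1611 units in MCAD-/- mice with LPS, against 3978, 3954, 3653, 3736 and 3737 units in MCAD-/- mice with vehicle. With LPS the wild type mice had 1879, 1888, 1675, 2156 and 2073 units, against 3973, 3373, 3306, 3515 and 3658 units with vehicle. The LPS mice were below all vehicle mice, and Proc was 2.39-fold lower in MCAD-/- (log2 -1.26 ± 0.10, adjusted p = 3.22e-09) and 1.85-fold lower in wild type mice (log2 -0.88 ± 0.10, adjusted p = 4.23e-07). Pros1, protein S, had 666, 635, 545, 729 and 566 units in MCAD-/- mice with LPS, against 478, 371, 522, 533 and 514 units in MCAD-/- mice with vehicle. In the wild type it had 404, 377, 376, 349 and 505 units with LPS, against 314, 277, 329, 271 and 292 units with vehicle. Pros1 was higher with LPS within each genotype and higher in MCAD-/- than in wild type within each injection. With LPS it was 1.30-fold higher in MCAD-/- (log2 0.38 ± 0.12, adjusted p = 0.00955) and 1.35-fold higher in wild type mice (log2 0.43 ± 0.12, adjusted p = 0.00423).

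Plg, plasminogen, whose active form plasmin dissolves fibrin, had 7135, 6967, 7093, 7597 and 7108 units in MCAD-/- mice with LPS, against 7985, 8422, 7424, 7637 and 9396 units in MCAD-/- mice with vehicle. The values in wild type mice were 6051, 6211, 6535, 5929 and 7489 units with LPS, against 8848, 8132, 8243, 8179.7 and 8336 units with vehicle. The wild type groups were separate and the MCAD-/- groups overlapped. Plg was 1.30-fold lower in wild type mice (log2 -0.38 ± 0.09, adjusted p = 0.000703), the MCAD-/- difference was -0.18 ± 0.09 (adjusted p = 0.0667, passing in 6 of 31 alternatives at 0.0227 at the lowest), and the interaction of 0.20 ± 0.12 did not pass (adjusted p = 0.384).

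By the brightest probe set of each gene, MCAD-/- and wild type mice given vehicle differed in few members. Of 17 complement genes 1 was higher and 1 lower in MCAD-/- mice, and of 17 coagulation genes 2 were higher and 0 lower, or 1 of 16 without F8, against a background of 16.2% of all genes (9.81% higher, 6.39% lower). The medians were 0.05 for complement and 0.07 for coagulation genes, beside 0.04 over all genes. Cfp, whose values in each mouse stand above, was 2.17-fold higher in MCAD-/- mice (log2 1.12 ± 0.21, adjusted p = 0.000867), and the lowest MCAD-/- mouse lay above the highest wild type mouse. Pros1 was 1.62-fold higher (log2 0.70 ± 0.12, adjusted p = 0.000412), again without overlap. The groups of 2 of the 34 members did not overlap, against 13.8% of all genes. Mbl1 was 1.31-fold lower (adjusted p = 0.0319), a call that ended when any of 5 mice was left out, MCAD-/- replicate 1 or 4 or wild type replicate 2, 3 or 4 with vehicle, at an adjusted p of 0.104 at most, and with a further quantile normalization (0.0506) or the 2 groups fitted alone (0.0886). Without the 2 arrays of high actin ratio the complement count was 1 in place of 2, since Mbl1 no longer passed (adjusted p = 0.0717). In a limma fit of 15748 probe sets, 1 dimmer probe set each of Masp2, C2 and Masp1 was higher in MCAD-/- mice with vehicle. The log2 differences were 1.84, 0.45 and 0.50 (adjusted p = 3e-08, 0.0226 and 0.00727), and the brightest probe sets of these genes did not pass.

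F8, factor VIII, the cofactor of factor IX, which liver sinusoidal endothelial cells are known to make, had 7.35, 9.09, 5.55, 7.03 and 5.40 units in MCAD-/- mice with LPS, against 47.1, 25.8, 53.3, 43.5 and 24.0 units in MCAD-/- mice with vehicle. Wild type samples had 17.9, 14.7, 9.17, 10.5 and 7.43 units of F8 with LPS, against 17.3, 8.31, 38.2, 11.8 and 10.6 units with vehicle. All 5 MCAD-/- vehicle mice exceeded 16 units, as did 1 wild type mouse with LPS, 2 with vehicle and 0 MCAD-/- mice with LPS. As a description, F8 was at least 2.30-fold lower with LPS in MCAD-/- mice, taking 16 units as the floor, and the wild type difference was -0.38 ± 0.34. Between genotypes with vehicle the groups overlapped, and the fitted log2 difference of 1.32 depends on the floor, since 3 of the 5 wild type mice lay under it. The fitted interaction, in which the wild type response to LPS is subtracted from the MCAD-/- response, was -2.07, and with values under 16 units set to 16 it was -0.96. F8 was the 1 member of 34 past the interaction threshold, downward, and the filter had let it pass only through the group where it was high. Of the other 33 members 0 passed that threshold (limma), where 4.11% of all genes passed it (1.36% upward and 2.76% downward). At the looser level of an unadjusted interaction p under 0.05 there were 7 of the 33. The share of all genes at that unadjusted level is not given, so no excess is read from the 7.

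Most tested markers of endothelial, Kupffer and stellate cells were higher in MCAD-/- than in wild type mice with vehicle, as Cfp was, where 16.2% of all genes differed (9.81% higher, 6.39% lower). Of the 3 tested neutrophil and other infiltrating myeloid markers 0 differed between these groups. With vehicle 7 of the 9 measured lay under the filter level in all mice of each genotype, and 0 exceeded it in all. The 3 tested had passed the filter through the LPS groups, so a difference with vehicle could be missed. Of 9 tested endothelial markers 8 were higher and 0 lower in MCAD-/- than in wild type mice with vehicle, with a median log2 difference of 1.44, and 4 of 9 had a lower LPS response in MCAD-/- mice by the interaction, beside 4.11% of all genes past its threshold. With LPS 2 rose and 5 fell in MCAD-/- mice (median -0.59), and 5 rose and 1 fell in wild type mice (median 0.77), where F8 differed by -0.38. The summed level of 10 endothelial markers was 764 to 1305 units in MCAD-/- mice with LPS against 1668 to 2402 units in MCAD-/- mice with vehicle, and 906 to 1453 units in wild type mice with LPS against 511 to 1141 units in vehicle-treated wild type mice. Of these, Pecam1 lay under 16 units in all mice. With vehicle 9 of the 10 exceeded 16 units in all MCAD-/- mice and 5 in all wild type mice, and 2 lay wholly under it in wild type mice. A tested marker thus passed the filter through groups where it is high, so the endothelial counts and medians are a description. Of 9 tested Kupffer cell and macrophage markers 6 were higher and 0 lower in MCAD-/- mice with vehicle, with a median of 0.85. With LPS 1 rose and 8 fell in MCAD-/- mice (median -1.53), and 1 rose and 6 fell in wild type mice (median -0.79), where Cfp differed by 0.09. The summed level of 11 such markers was 608 to 1227 units in MCAD-/- mice with LPS against 1708 to 2439 units in MCAD-/- mice with vehicle, and 524 to 1096 units in wild type mice with LPS against 947 to 1737 units in vehicle-treated wild type mice. Timd4 and Cd68 did not pass the filter. With vehicle 1 of the 11 lay wholly under 16 units in MCAD-/- mice and 3 did in wild type mice, so the Kupffer cell counts and medians are a description too. Of 7 tested stellate cell and fibroblast markers 4 were higher and 0 lower in MCAD-/- mice with vehicle (median 0.63). The part of these cells in the values of F8 and Cfp was not tested.

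**Figure D4:**
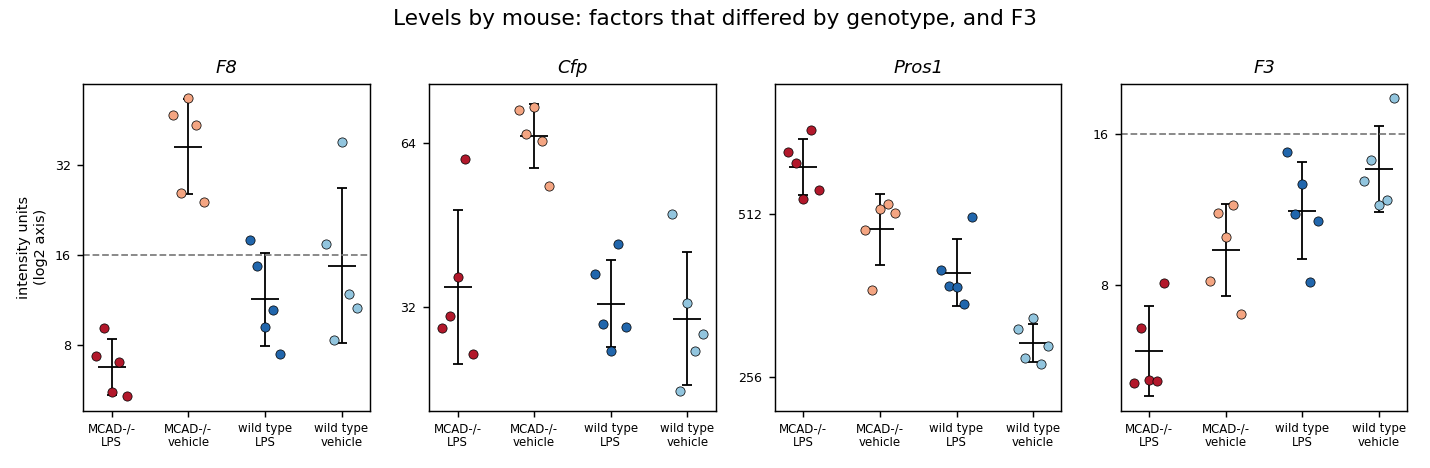
Intensity of F8, Cfp, Pros1 and F3 in each mouse on a log2 axis, groups in the order MCAD-/- with LPS, MCAD-/- with vehicle, wild type with LPS, wild type with vehicle; lines are means of the log2 values, bars ±1 SD, and the dashed line is 16 units. By their mean lines F8 and Cfp are highest in MCAD-/- mice with vehicle. Pros1 is higher in MCAD-/- than in wild type mice under either injection, and F3 exceeds 16 units in 1 mouse.

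With LPS, MCAD-/- and wild type mice differed in 5 members. Of the complement genes 0 were higher and 1 lower in MCAD-/- mice, and of the coagulation genes 2 were higher and 2 lower, against 20.6% of all genes (8.75% higher, 11.8% lower). Pros1 was 1.57-fold higher (log2 0.65 ± 0.12, adjusted p = 0.000714), close to its difference with vehicle, and the interaction was -0.05 ± 0.17 (95% confidence interval -0.41 to 0.31). F10 was 1.25-fold higher (log2 0.33 ± 0.09, adjusted p = 0.0146), and the log2 difference was 0.71 with the mean of its probe sets (adjusted p = 4.7e-05) and did not pass with the 2 groups fitted alone (adjusted p = 0.0787). F12 was 1.35-fold lower (log2 -0.43 ± 0.11, adjusted p = 0.011), and its groups did not overlap. Masp1 was 1.40-fold lower (adjusted p = 0.0197), a call lost with the mean of its probe sets (log2 0.07) and without wild type LPS replicate 5 or MCAD-/- LPS replicate 3 (adjusted p = 0.0547 and 0.0629). Klkb1 was 1.85-fold lower (log2 -0.88 ± 0.27, adjusted p = 0.0244), and this call ended without any one of wild type replicates 1, 2 or 5 or MCAD-/- replicates 1, 2, 3 or 5 with LPS, at an adjusted p of 0.0675 at most, and with the 2 groups fitted alone (adjusted p = 0.108). Mbl1, Pros1 and F12 were the tested members whose groups did not overlap, against 12.8% of all genes. The genotype and LPS comparisons share groups with one another, so their values are only set side by side.

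Other genes of the same cascades, listed by pathway membership, moved as the members did in some branches and not in others. Of 25 complement genes outside the members 19 had a probe set and 15 were tested: with LPS 4 rose and 10 fell in MCAD-/- mice (median log2 difference -1.05), and 4 rose and 9 fell in wild type mice (median -0.69), where 65.7% and 64% of all genes changed. Of the 15 genes 10 exceeded 16 units in all mice, and Vsig4 and Itgb2 lay wholly under it in 1 or more groups, so they passed the filter through the groups where they are high. Their differences from groups under 16 units are given as a description, and the counts of rises and falls hold them. Vsig4, a complement receptor of Kupffer cells, was at least 22.7-fold lower with LPS in MCAD-/- and at least 9.37-fold lower in wild type mice. Colec10 and Colec11, lectins that also carry Masp proteases, were 7.36-fold lower and 7.41-fold lower in MCAD-/- mice (adjusted p = 2.44e-09 and 7.11e-09), and Colec11 was 7.22-fold lower in wild type mice (adjusted p = 9.65e-09). Itgb2, the beta chain of the leukocyte receptors for C3 fragments, was at least 3.35-fold higher with LPS in wild type mice. Between genotypes with vehicle 9 of the 15 were higher and 1 lower in MCAD-/- mice (median 0.96), against 16.2% of all genes, among them Fcna, a ficolin (2.27-fold, adjusted p = 0.000442), Colec10 (2.35-fold, adjusted p = 0.000942) and Vsig4 (2.42-fold, adjusted p = 0.000442). With LPS, where 20.6% of all genes differed, 1 was higher, Colec11 (1.78-fold, adjusted p = 0.0244), and 1 lower, Cd59a, which blocks pore assembly on host cells (3.47-fold, adjusted p = 0.00275). Vsig4, C1qa, C1qb and C1qc belong to the Kupffer cell markers as well, whose values stand above.

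Of 25 coagulation genes outside the members 23 had a probe set and 18 were tested. With LPS 7 rose and 8 fell in each genotype, with a median of -0.25 in MCAD-/- and -0.29 in wild type mice, beside the 65.7% and 64% of all genes. Of the 18 genes 12 exceeded 16 units in all mice. F13a1, Vwf, Thbd, Procr and A2m lay wholly under it in 1 or more groups and passed the filter through the others. Their differences from groups wholly or mostly under 16 units are given as a description, and the counts hold these genes. A2m, alpha-2-macroglobulin, a broad protease inhibitor, averaged 6967 units in MCAD-/- mice with LPS and 8.76 units with vehicle. In wild type mice A2m was at least 26.5-fold higher with LPS. Procr, which binds protein C on endothelium, was at least 3.85-fold higher in MCAD-/- and at least 6.73-fold higher in wild type mice. F13a1, the catalytic subunit of factor XIII, known from macrophages and platelets, was at least 2.40-fold higher in MCAD-/- and at least 1.77-fold higher in wild type mice. F13b of the same factor fell. Between genotypes with vehicle, against 16.2% of all genes, 2 were higher and 2 lower in MCAD-/- mice. Among them were Thbd, thrombomodulin, which turns thrombin towards protein C (at least 1.10-fold higher), and F2r, a thrombin receptor (1.69-fold lower, adjusted p = 0.0146). Another was Vwf, von Willebrand factor, which carries factor VIII (15.8 units against 8.12 units, over 16 in 2 and 0 mice, with no fold given). With LPS, against 20.6% of all genes, 2 were higher and 3 lower in MCAD-/- mice, among them A2m (16.4-fold higher, adjusted p = 1.78e-05), Vwf (17.6 units against 8.05 units, over 16 in 3 and 0 mice) and Procr (1.75-fold lower, adjusted p = 0.00208). Of the 18 genes 2 passed the interaction threshold, A2m and Procr, against 4.11% of all genes. Their vehicle values lay under 16 units in all mice but 1, at means of 8.76 and 5.77 units for A2m and 8.73 and 6.60 units for Procr in MCAD-/- and wild type mice, so the size of a fitted interaction depends on the floor and is not given.

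Over the promoters of the members, 30 of 39 had a RefSeq window. The STAT3-type motif was in 7 of 30 (C8a, F9, Fga, Fgb, Masp2, Pros1 and Vtn) and in 8.30% of all 32851 windows. The IL-6 response element was in 6 of 30 (C6, F9, Fgb, Fgg, Masp2 and Vtn) and in 11.1% of all windows, overlapping the STAT3-type match in F9, Masp2 and Vtn. The C/EBP-type motif was in 8 of 30 and in 10.8%, the HNF1-type motif in 4 of 30 (C4bp, F13b, Fgb and Hc) and in 1.03%, and the NF-kappaB-type motif in 0 of 30 and in 1.63%, all searched on both strands. Members that rose with LPS and members that fell with LPS both held the STAT3-type motif: Fga, Fgb, Pros1 and Vtn rose in both genotypes, and C8a, F9 and Masp2 fell in both. All 4 members with the HNF1-type motif were measured, and Hc and F13b fell in both genotypes, Fgb rose in both and C4bp rose in MCAD-/- mice.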

How the data were processed

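The values are intensity on a linear scale, made with GCRMA (background correction, normalization between arrays and probe summary) per the submitters' processing notes, whose version is not given in the sources used here. The deposited table has 45101 probe sets, 64 of them controls. Through the platform annotation 34945 probe sets carried 1 symbol, 932 carried several (left unnamed), and 9160 others were not listed and are unnamed here. GCRMA normalizes between arrays, so differences are relative to the whole array.

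Values were taken to log2 with no pseudocount, 1 probe set per gene. A 4-group linear model was fitted with limma 3.58.1 in R 4.3.3, with Benjamini-Hochberg adjustment over 8774 genes and a threshold of 0.05; errors are standard errors of the fit unless given as SD. The fit was tested on simulated data. With all 5 values of a group under 16 units, a fold is given as a bound ("at least"). Promoters are RefSeq windows of 300 bases.

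The members and lists were chosen with earlier results of these data known. Values in every mouse are given for the member with the smallest adjusted p for LPS in each role, members past the interaction threshold, members past the threshold and at least 1.5-fold different between genotypes, and F2, F3, F8, Fga, Fgb and Fgg; C6 was added after its values were seen. From the other genes of the pathways, up to 3 per list and comparison are named. Replicates are separate mice, called biological replicates by the submitters. The labels state no pairing, so the replicate numbers were not used as pairs and entered only as an alternative. Alternatives were other filters, normalizations, priors, probe set summaries, array weights, a replicate block, the compared groups alone and each mouse left out.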

Additional observations from a re-analysis of the deposited data

Results flagged for a closer look

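Each of 136 groups of 5 mice (34 genes in 4 groups) was examined for a mouse whose gap to its nearest neighbour exceeded 0.71 of the group's range, which chance gives in about 1 of 20 groups, and 12 groups had one. Wild type replicate 3 with vehicle, 1 of the 2 arrays of high actin ratio, was the mouse in 4 of them. It had 8277 units of Clu (the others 14060 to 15366), 4684 units of Vtn (6224 to 6637), 1694 units of F12 (2384 to 2436) and 535 units of F7 (843 to 948). MCAD-/- replicate 4 with LPS was the mouse in 3, with 146 units of Klkb1 (the others 40.7 to 51.8), 585 units of F7 (330.5 to 363) and 7597 units of Plg (6967 to 7135). Wild type replicate 1 with vehicle had 4162 units of C8a (4685 to 4750.01) and 8848 units of Plg (8132 to 8336). With LPS, wild type replicate 5 had 12945 units of Clu (15044 to 15361) and 9206 units of Vtn (7991 to 8262), and wild type replicate 4, the other array of high actin ratio, had 11592 units of Kng1 (8671 to 9464).

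F8 had a fitted log2 interaction between genotype and LPS of -2.07, past the threshold in limma. It passed the filter on low values only through MCAD-/- mice with vehicle, where all 5 mice exceeded 16 units, against 0 MCAD-/- mice and 1 wild type mouse with LPS and 2 wild type mice with vehicle, so this value is a description. Without the 2 arrays of high actin ratio it was -2.44, and with values under 16 units set to 16 it was -0.96 and did not pass (adjusted p = 0.0813). The part of the array ratio and of the floor in these values was not tested.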

How the results depend on the processing

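The counts of members changed by LPS stayed within 1.5 times of the reported ones in every alternative: complement 14 in MCAD-/- mice (13 to 16) and 11 in wild type mice (10 to 12), coagulation 12 in MCAD-/- mice (12 to 15) and 11 in wild type mice (10 to 14); leaving out each mouse gave 14 to 15, 10 to 12, 12 to 13 and 10 to 12. The coagulation counts for LPS in MCAD-/- mice and for the genotypes with vehicle hold F8, except with the stricter filter, which F8 does not pass. The few genotype calls moved more. For MCAD-/- against wild type with vehicle, the complement count of 2 was 1 with the stricter filter, with quantile normalization, with the 2 groups alone and without the 2 arrays of high actin ratio, and 4 with the mean of probe sets and with array weights (1 to 2 with each mouse left out). The coagulation count of 2 was 1 with the stricter filter and 4 with the trended prior and with array weights (2 to 3). With LPS, the complement count of 1 was 2 with array weights and 0 with the 2 groups alone (0 to 3), and the coagulation count of 4 was 2 with the 2 groups alone (3 to 6). For the interaction, the complement count of 0 was 2 with the replicate block, 1 with the mean of probe sets, with the trended prior and with values under 16 units set to 16, and 3 with array weights (0 to 2); the coagulation count of 1, F8, was 0 with the stricter filter, which F8 does not pass, and with values set to 16, and 2 with array weights (1 to 3). With the mean of probe sets the sign turned for Masp1 with LPS in wild type mice (0.036, adjusted p = 0.711) and between genotypes with LPS (0.075, adjusted p = 0.552), and for F10 with LPS in MCAD-/- mice (0.28, adjusted p = 0.021). Other causes were not tested. The setting to 16 units and the 2 arrays left out were chosen after seeing the data, and the 2 groups alone cannot give an interaction.

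The labels state no pairing of mice with the same replicate number. Correlations of their deviations ran from -0.12 to 0.28, 7 of 30 pairs exceeded 0.1, and 7 of 20 arrays correlated best with their own number. Whether the numbers mark anything shared was not tested. The replicate block gave 15 and 12 complement and coagulation calls for LPS in MCAD-/- mice, the coagulation calls with F8 among them.

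Signal over background limits F8 and F3, which lay near 16 units. With 5 mice per group small differences would be missed, and whole liver does not separate cell types.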

Other observations

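Of the coagulation list outside the members, 6 genes not yet described are given here, picked after their values were seen. Ggcx, the carboxylase that uses vitamin K, differed by -1.51 ± 0.22 on the log2 scale in MCAD-/- (adjusted p = 7.7e-06) and -1.38 ± 0.22 in wild type mice (adjusted p = 2.25e-05). Vkorc1, the enzyme that recycles vitamin K, differed by -1.16 ± 0.12 (adjusted p = 6.52e-08) and -0.98 ± 0.12 (adjusted p = 7.16e-07). Proz, vitamin K-dependent protein Z, differed by -1.72 ± 0.15 (adjusted p = 8.93e-09) and -1.33 ± 0.15 (adjusted p = 3.37e-07), and Serpind1, heparin cofactor II, by -2.79 ± 0.22 (adjusted p = 1.84e-09) and -2.41 ± 0.22 (adjusted p = 1.59e-08). Lman1 and Mcfd2 encode the pair of proteins that carry factors V and VIII out of the endoplasmic reticulum. Lman1 fell by 1.02 in MCAD-/- and by 1.16 in wild type mice (adjusted p = 1.49e-05 and 3.35e-06), and Mcfd2 rose by 0.84 and 0.48 (adjusted p = 4.1e-07 and 0.000285).

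Several members have more than 1 single-symbol probe set, and those of 4 members, picked after their values were seen, gave other calls in a limma fit of 15748 probe sets. For Masp2 the dimmer probe set was higher in MCAD-/- than in wild type mice by 1.84 with vehicle (adjusted p = 3e-08) and 1.43 with LPS (adjusted p = 1.02e-06), where the brighter one differed by 0.06 and 0.08. For F10, 2 dimmer probe sets were higher in MCAD-/- mice by 0.84 and 0.97 with LPS (adjusted p = 5.63e-05 and 4.71e-05), beside 0.33 for the brightest. For Kng1 the dimmer probe set fell by 0.42 with LPS in both genotypes (adjusted p = 0.0052 in MCAD-/- and 0.0059 in wild type mice), where the brightest differed by 0.10 and 0.09. For C2 a dimmer probe set had an interaction of -0.83 (adjusted p = 0.0151), beside -0.61 for the brightest. Which transcripts these probe sets report was not tested.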
